A study of Homo sapiens with 480 samples.

Results

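Single Jurkat cells exposed for 24 h to PMA were compared with single Jurkat cells exposed for the same time to SAHA. The 72 cells compared are the wells labelled Jurkat with PMA (36 wells) or Jurkat with SAHA (36 wells) on the plates P2769, P2770 and P2771, 12 wells of each agent on each plate, out of 410 wells kept of 480 in the whole study. Wells with a total under 0.1 of their plate's median, or with under 500 genes detected, were left out, and no Jurkat well on these plates was among them. PMA (phorbol 12-myristate 13-acetate) was used at 1 ug/mL, SAHA (suberoylanilide hydroxamic acid) at 1 uM, and the vehicle DMSO at 0.1% v/v, 1 dose and 1 time each, in cells of 1 line that the labels name only as Jurkat. Jurkat cells with DMSO on the same plates (18 wells, 6 a plate) show the level without either agent, and J-Lat A2 cells, a Jurkat clone with an integrated HIV-derived construct, were given the same agents on the same plates (79 of 81 wells with PMA and 68 of 81 with SAHA kept). Counts were summed per treatment and plate, so each group has 3 values, given below in CPM (counts scaled to a common library total after TMM normalisation) and in the order P2769, P2770 and P2771. The labels do not say that the plates hold separate cultures, so the p-values measure the spread between plates, which may be technical.

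Jurkat is a human CD4 T cell line grown from a leukaemia, arrested at an immature stage of the T lineage. PMA mimics diacylglycerol and switches on protein kinase C and RasGRP, and through them the ERK kinases, AP-1 and NF-kB, the branches of T cell receptor signalling that lie below the receptor. SAHA (vorinostat) blocks zinc-dependent histone deacetylases, so that acetyl groups build up on histones and on other proteins such as tubulin. Both classes of agent are studied as latency-reversing agents because each can awaken silent HIV proviruses in T cell lines. The 2 agents are not structurally related.

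Summed counts per plate ran from 5865982 to 6996471 for PMA and from 5950768 to 6779991 for SAHA. The median cell had 526565 counts with PMA, 529386 with SAHA and 512920 with DMSO. After every cell was thinned to 100000 counts, which left out 0 cells, the median cell had 5104.5 genes with PMA, 5453 with SAHA and 5232 with DMSO. Mitochondrially encoded genes took a median of 3.67% of the counts of a PMA cell, 4.51% of a SAHA cell and 3.20% of a DMSO cell. All 12 T cell identity markers looked for had reads in both groups, but at unlike levels. Of 11 tested, 10 were called higher with PMA (median log2 fold change of PMA over SAHA 3.58). Summed over these markers, the median cell held 13005 CPM with PMA, 1163 CPM with SAHA and 5401 CPM with DMSO. The markers share members, such as TRAC and CD3D, with the T cell receptor list below. Of the markers of other cell types, 1 of 6 for B cells (CD79A, described below), 2 of 9 for myeloid cells, 2 of 6 for erythroid cells and megakaryocytes and 5 of 8 for NK cells had any read. Their summed level per plate stayed at or under 4.95 CPM for myeloid, 3.32 CPM for erythroid and 23.7 CPM for NK markers in either group, and MS4A1, CD14, HBB and GNLY were at 0 in all 6 sums. Plates P2769 and P2771 used the same 96 index pairs. Profiles of wells with the same index pair on these plates were no more alike than those of other wells of the group (median correlation 0.537 against 0.537 for PMA and 0.586 against 0.588 for SAHA). HIVmini, the viral feature in the table, had reads in 1 of 36 PMA cells, 1 of 36 SAHA cells and 2 of 18 DMSO cells.

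T cell receptor and activation genes stood higher with PMA than with SAHA, and mitotic, tubulin and several chromatin genes stood lower. Of 9932 genes tested, 755 were called (7.60%) by edgeR's quasi-likelihood test with Benjamini-Hochberg adjustment at 0.05, 382 higher with PMA (3.85%) and 373 lower (3.76%). The median log2 fold change, always PMA over SAHA, was 2.31 among the genes called higher and -1.40 among those called lower, against -0.02 over all genes tested. All 755 moved the same way on 3 of 3 plates, but the calls came from these same plates, so this is no separate support. The plate values did not overlap for 375 of the higher and 345 of the lower genes, a separation seen for 30.2% of all genes tested. Set beside DMSO, the genes called higher had a median log2 of 1.25 for PMA over DMSO and of -0.95 for SAHA over DMSO, and the genes called lower had medians of -0.44 and 1.01 (both fold changes use the same DMSO sums). Reads cannot be fully told apart where exons of neighbouring genes overlap. Among the genes below this holds at least for LCP2, PTPRCAP, DGKA, PRKCH, PVRIG, GBP2, ANLN, KIF4A, TUBB4B, CCNE2, GNG3, H3-3B, PFN1, ACAT2, IFITM2 and WARS1. The count depends on the number of plates: 386 genes were called without P2769, 292 without P2770 and 303 without P2771.

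**Figure D1:**
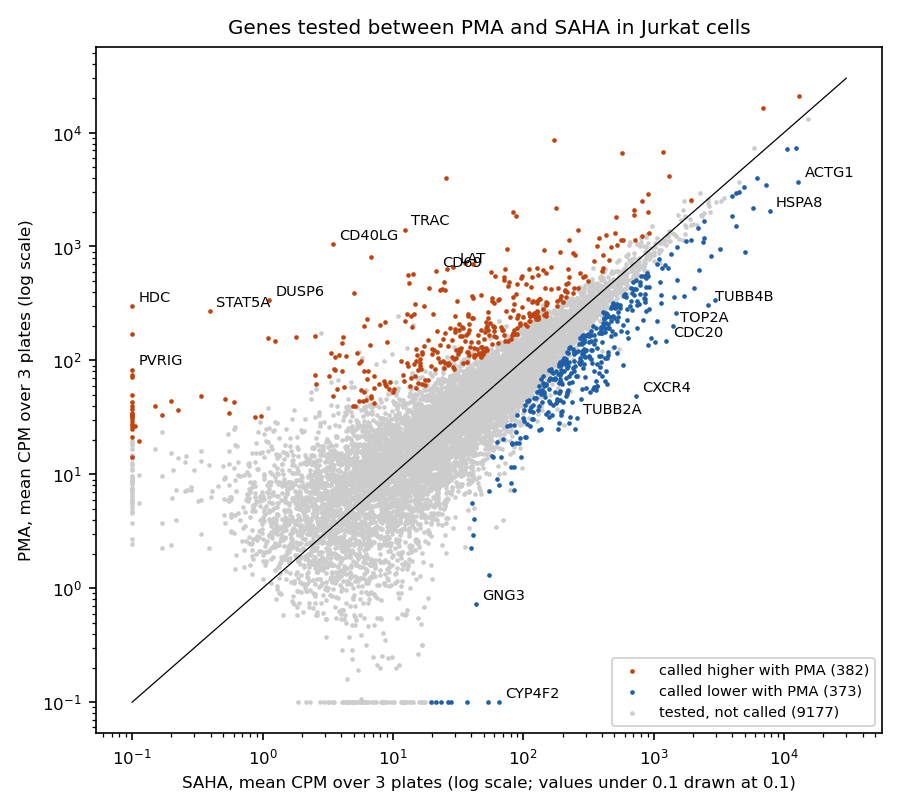
Mean level of each tested gene over 3 plates with PMA (vertical axis) against SAHA (horizontal axis), both in CPM on log axes, with values under 0.1 drawn at 0.1 and the diagonal marking equal levels. The 382 genes called higher with PMA lie above the diagonal, with HDC, PVRIG and STAT5A near or at the left edge, and the 373 called lower lie below it, with CYP4F2 at the bottom edge.

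**Figure D2:**
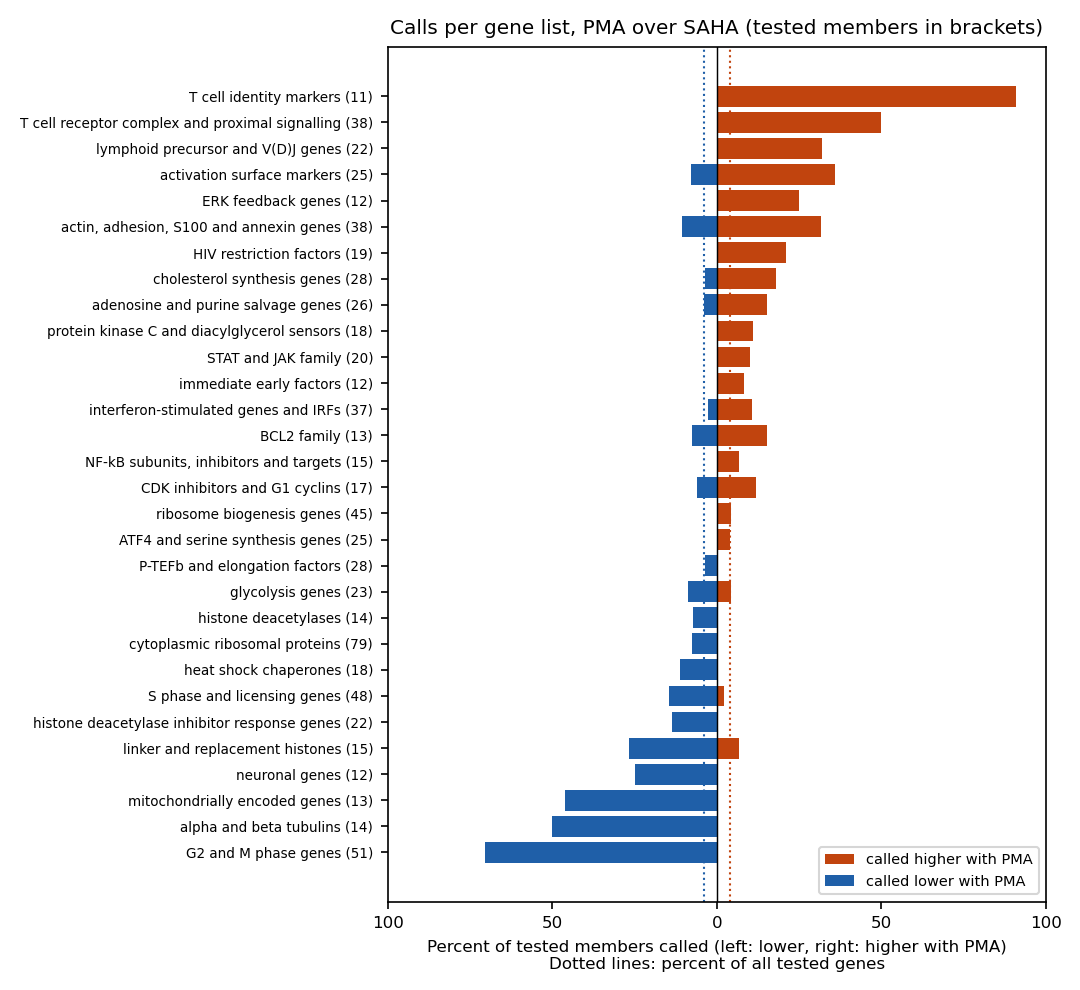
Share of the tested members of each gene list called higher (right) or lower (left) with PMA, for lists with at least 10 tested members. Dotted lines mark the shares over all genes tested, 3.85% and 3.76%. The T cell identity markers reach furthest to the right and the G2 and M phase genes furthest to the left.

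The T cell receptor complex and its proximal signalling proteins were the list with the most genes called higher. The receptor pairs an alpha and a beta chain with the CD3 proteins, which are phosphorylated by LCK and then signal through ZAP70 and the adaptors LAT and SLP-76 (LCP2). Of 38 members tested, 19 were called higher and 0 lower, and the median log2 fold change of the list was 2.90. TRAC, the constant region of the alpha chain, had 1423, 1909 and 896 CPM with PMA, against 2.17, 24.6 and 10.3 CPM with SAHA, with DMSO at 105.3, 109.04 and 29.7 CPM. Every PMA plate was far above every SAHA plate, and the DMSO plates lay between them. The log2 fold change of TRAC was 7.10 ± 0.63 (SE; adjusted p = 0.00218), and it had reads in 36 of 36 PMA cells and 9 of 36 SAHA cells (36 and 8 after thinning). TRBC2, one of the pair of beta chain constant regions, had 1053, 815 and 963 CPM with PMA, against 94.6, 78.9 and 50.9 CPM with SAHA, with DMSO at 437, 372 and 376 CPM, a log2 fold change of 3.69 ± 0.22 (adjusted p = 0.000802). Its near-identical partner TRBC1 averaged 6634 ± 677 CPM with PMA and 567 ± 100.9 CPM with SAHA (SD, n = 3 each), a log2 fold change of 3.56 ± 0.15 (adjusted p = 0.000383), and reads may have been divided between the pair by estimation. The 3 values of the alpha and beta chain genes thus fell in the same order, PMA above DMSO above SAHA, on 3 of 3 plates.

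The CD3 proteins and the signalling adaptors named here followed the same order in their means, and ZAP70 did not. CD3D averaged 2163 ± 525 CPM with PMA, against 178.9 ± 29.6 CPM with SAHA and 833 ± 127.7 CPM with DMSO, a log2 fold change of 3.58 ± 0.15 (adjusted p = 0.000383). For CD3E and CD3G the log2 fold changes were 2.42 ± 0.25 and 2.79 ± 0.36 (adjusted p = 0.00388 and 0.00769). PTPRC, which encodes the phosphatase CD45 that primes LCK, averaged 630 ± 48.7 CPM with PMA and 72.8 ± 24.0 CPM with SAHA, and PTPRCAP, a protein that binds CD45, had 623, 414 and 408 CPM with PMA, against 18.8, 14.5 and 6.74 CPM with SAHA. Their log2 fold changes were 3.17 ± 0.22 and 5.24 ± 0.28 (adjusted p = 0.00105 and 0.000661). Exons of PTPRCAP overlap those of CORO1B, so reads of these genes may not be fully separated. LCP2 had 65.7, 89.4 and 90.9 CPM with PMA, against 6.20, 2.40 and 2.19 CPM with SAHA, a log2 fold change of 4.64 ± 0.59 (adjusted p = 0.00769), which missed the threshold without P2770 (0.0552) and without P2771 (0.0507). LCK had the smallest fold change of the called receptor genes named here, a log2 of 1.76 ± 0.15 (adjusted p = 0.00203). ZAP70, the kinase that binds phosphorylated CD3 chains, averaged 109.2 CPM with PMA and 37.5 CPM with SAHA and was not called (log2 1.79 ± 0.46, adjusted p = 0.0703). CD28, the co-stimulatory receptor, had 304, 344 and 288 CPM with PMA, against 6.20, 14.4 and 24.1 CPM with SAHA, and CD2, the adhesion receptor for CD58, had 162.97, 177.8 and 92.8 CPM with PMA, against 13.8, 8.996 and 4.04 CPM with SAHA. Both were called, with log2 fold changes of 4.55 ± 0.42 and 4.11 ± 0.34 (adjusted p = 0.0026 and 0.00182). In the whole list 17, 15 and 13 genes were called when P2769, P2770 or P2771 was left out.

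LAT, the membrane adaptor that nucleates the signalling complex, had 697, 601 and 682 CPM with PMA, against 17.5, 35.4 and 33.9 CPM with SAHA, with DMSO at 60.5, 87.5 and 64.9 CPM. The PMA plates differed little from each other and lay far above both other groups, and the log2 fold change was 4.57 ± 0.29 (adjusted p = 0.000824). Its promoter, from RefSeq (GRCh38.p14, 250 bases before to 50 after the start), is shown because AP-1 is a factor that phorbol esters induce. Capitals mark a match to the AP-1 letters TGANTCA, 78 bases before the start.
LAT promoter (chr16:28984553-28984852, plus strand): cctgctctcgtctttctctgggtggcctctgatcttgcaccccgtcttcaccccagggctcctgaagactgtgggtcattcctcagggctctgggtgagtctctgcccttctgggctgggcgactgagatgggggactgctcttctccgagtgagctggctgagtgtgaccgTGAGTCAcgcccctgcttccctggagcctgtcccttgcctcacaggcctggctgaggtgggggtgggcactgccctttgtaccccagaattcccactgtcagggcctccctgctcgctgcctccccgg
The AP-1 letters, read on both strands, were in 14 of the 299 promoters found for the 382 genes called higher (4.68%). They were in 3.91% of the 8141 promoters of tested genes and in 7.76% of all 27305 promoters. The letters GCGTGGG of the EGR factors were in 8.36% of the promoters of genes called higher, against 9.75% of those of tested genes and 6.74% of all. A match is a description of the sequence and not a bound site.

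**Figure D3:**
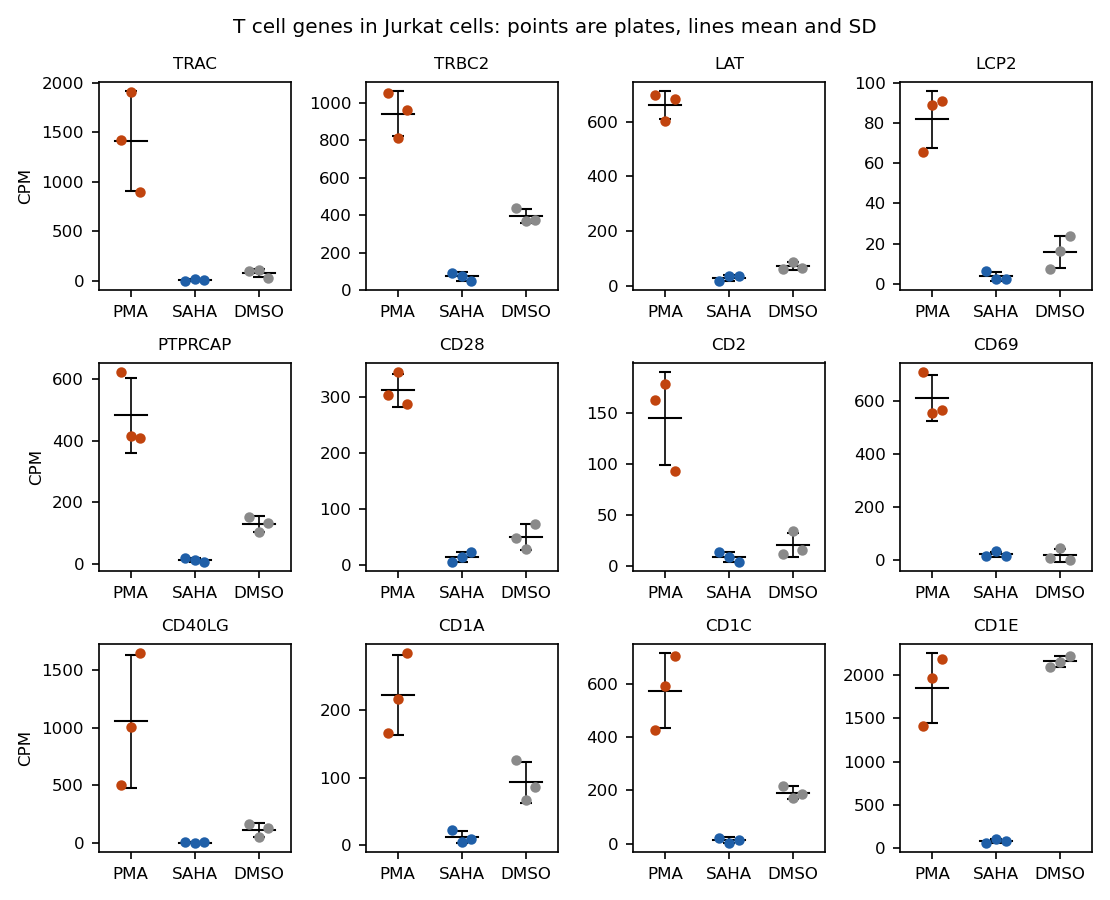
Level in CPM of 12 T cell genes in Jurkat cells with PMA, SAHA and DMSO. Each point is 1 plate, and the lines give the mean and SD over 3 plates. The PMA points of TRAC, LAT and CD69 stand above all SAHA and DMSO points, whereas for CD1E the PMA and DMSO points stand together above the SAHA points.

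Among activation markers of the cell surface, 9 of 25 tested were called higher (36%, against 3.85% of all genes tested) and 2 lower (8%, against 3.76%). The list median was 2.34. CD69, the C-type lectin that marks recently activated lymphocytes and holds them in tissue, had 711.6, 558 and 567 CPM with PMA, against 16.3, 32.5 and 15.0 CPM with SAHA, with DMSO at 5.65, 45.6 and 0 CPM. Its SAHA and DMSO plates overlapped, and its log2 fold change was 4.92 ± 0.32 (adjusted p = 0.000853), with reads in 36 of 36 PMA cells and 11 of 36 SAHA cells (35 and 10 after thinning). CD40LG, the CD40 ligand through which helper T cells license B cells, had 504, 1011 and 1649 CPM with PMA, against 5.58, 0.15 and 4.72 CPM with SAHA, with DMSO at 165.8, 49.4 and 129.2 CPM, a log2 fold change of 8.25 ± 0.82 (adjusted p = 0.00329). It had reads in 25 of 36 PMA cells and 4 of 36 SAHA cells (25 and 3 after thinning), so its high level came from part of the PMA cells. CD82, a tetraspanin, averaged 1148 ± 299 CPM with PMA, against 225 ± 51.9 CPM with SAHA and 105.6 ± 33.4 CPM with DMSO (log2 2.34 ± 0.14, adjusted p = 0.000802). IL2RG, the common gamma chain of cytokine receptors, averaged 879 ± 89.7 CPM with PMA and 241 ± 23.6 CPM with SAHA (log2 1.87 ± 0.15, adjusted p = 0.00177).

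CXCR4, the receptor for the chemokine CXCL12 and a co-receptor for HIV entry, was the surface gene called lower with the largest change. It had 41.7, 29.3 and 75.1 CPM with PMA, against 931, 633 and 614 CPM with SAHA, with DMSO at 424, 539 and 520.6 CPM. The PMA plates lay far below both other groups, and the log2 fold change was -3.98 ± 0.34 (adjusted p = 0.00201), with reads in 16 of 36 PMA cells and 36 of 36 SAHA cells (the same after thinning). TFRC, the transferrin receptor that brings iron into dividing cells, was the other gene called lower (log2 -1.21 ± 0.22, adjusted p = 0.0272), and it averaged 60.1 CPM with PMA, 143.2 CPM with SAHA and 322 CPM with DMSO. The call on TFRC missed the threshold without P2769 (0.0617), P2770 (0.164), P2771 (0.209) or the plate term (0.352).

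Feedback genes of the ERK pathway included 3 of 12 called higher (25%, against 3.85% of all genes tested) and 0 lower, with a median of 2.08. DUSP6, the phosphatase that switches off ERK in the cytoplasm, had 285, 329 and 405 CPM with PMA, against 0, 0 and 3.37 CPM with SAHA and 0 CPM on all 3 DMSO plates. All 20 SAHA reads came from 1 of 36 cells, whereas 28 of 36 PMA cells had reads (the same after thinning). The log2 fold change was 8.64 ± 0.91 (adjusted p = 0.00398). DUSP2, a nuclear ERK phosphatase, had 42.3, 180 and 63.1 CPM with PMA, against 5.12, 5.55 and 5.73 CPM with SAHA (log2 3.84 ± 0.53, adjusted p = 0.0102, and 0.0992 without P2770). ETV5, an ETS factor induced by ERK, averaged 55.7 CPM with PMA and 3.74 CPM with SAHA (log2 4.45 ± 0.86, adjusted p = 0.0316, and 0.135 without P2770, 0.107 without P2771 or 0.0549 without the plate term).

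Of the immediate early factors only IER2 was called among 12 tested (8.33%, against 3.85% of all genes tested called higher), although the list median was 2.49. IER2 had 363, 557 and 533 CPM with PMA, against 13.96, 35.2 and 24.3 CPM with SAHA, with DMSO at 9.28, 84.9 and 69.1 CPM, a log2 fold change of 4.38 ± 0.22 (adjusted p = 0.000661). EGR1, JUNB and BATF averaged 14.2, 15.4 and 16.7 CPM with PMA and 1.03, 0.95 and 2.90 CPM with SAHA, levels at which none was called (adjusted p = 0.149 and 0.135 for EGR1 and JUNB). FOS averaged 8.87 CPM with PMA and 19.8 CPM with SAHA and was not called. Of the NF-kB subunits, inhibitors and targets, 1 of 15 was called, CFLAR, the caspase-8 inhibitor FLIP (log2 2.54 ± 0.51, adjusted p = 0.0346, and 0.132, 0.161 and 0.0686 without P2769, P2770 and P2771). This 1 call is 6.67% of the list, against 3.85% of all genes tested called higher. The list median was 0.27, and TNFAIP3, the inhibitor A20, averaged 46.3 CPM with PMA and 16.2 CPM with SAHA (log2 1.55 ± 0.50, adjusted p = 0.126).

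Only 2 of 27 cytokine genes looked for passed the filter on low counts, and both were called higher, against 3.85% of all genes tested. Of the pair, IL16 passed the filter through its PMA sums, so the direction of its call is no separate support. IL16, a T cell chemoattractant made as a precursor, had 196.3, 180 and 96.5 CPM with PMA, against 0, 3.30 and 0 CPM with SAHA, where all 22 reads came from 1 cell, and 0 CPM with DMSO (log2 7.70 ± 1.05, adjusted p = 0.0101). TNFSF10, the death ligand TRAIL, had 141.9, 231 and 216 CPM with PMA, against 8.84, 4.35 and 28.6 CPM with SAHA (log2 4.15 ± 0.57, adjusted p = 0.0101, and 0.0661 without P2769). IL2, the growth factor that T cells make on full stimulation, averaged 3.30 CPM with PMA and was at 0 with SAHA, and IFNG was at 0 in both groups.

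CD1E, CD1C and CD1A, genes of immature thymocytes, were higher with PMA than with SAHA and lay below the vehicle with SAHA. The CD1 proteins present lipids and mark cortical thymocytes. CD1E had 1406, 1965 and 2183 CPM with PMA, against 63.4, 110.7 and 89.6 CPM with SAHA, with DMSO at 2095, 2154 and 2222 CPM. Its PMA and DMSO ranges overlapped and its SAHA plates lay far below, so that the log2 fold change between the agents was 4.41 ± 0.15 (adjusted p = 0.000261). The log2 values against DMSO were -0.26 ± 0.16 for PMA and -4.66 ± 0.18 for SAHA. CD1C had 425, 592 and 704.4 CPM with PMA, against 23.1, 3.75 and 16.01 CPM with SAHA, with DMSO at 218, 171.9 and 186.3 CPM (log2 5.53 ± 0.59, adjusted p = 0.00426). CD1A had 166.7, 216 and 285 CPM with PMA, against 22.6, 5.10 and 9.27 CPM with SAHA, with DMSO at 126.3, 67.4 and 85.6 CPM (log2 4.39 ± 0.55, adjusted p = 0.00741). CD1C and CD1A therefore lay above DMSO with PMA and below it with SAHA on 3 of 3 plates, unlike CD1E. CD1 genes are similar in sequence, and some reads may have been assigned among them by estimation.

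In the whole list of precursor and V(D)J genes 7 of 22 were called higher (31.8%, against 3.85% of all genes tested) and 0 lower. The list median was 1.04. TAL1, the basic helix-loop-helix factor that drives many T cell leukaemias, had 118.01, 42.7 and 61.04 CPM with PMA, against 1.09, 4.95 and 1.52 CPM with SAHA (log2 4.99 ± 0.85, adjusted p = 0.0212, and 0.0775 without P2769 or 0.102 without P2771). LEF1, a Wnt effector of early T cells, averaged 1133 ± 259 CPM with PMA, against 563 ± 157.3 CPM with SAHA and 324 ± 46.02 CPM with DMSO (log2 1.03 ± 0.12, adjusted p = 0.00494, and 0.0638 without the plate term). RAG2, a subunit of the recombinase that cuts receptor genes, had 0, 10.3 and 0 CPM with PMA, against 27.3, 77.97 and 81.4 CPM with SAHA, with DMSO at 37.5, 72.0 and 90.1 CPM, and was not called (log2 -6.33 ± 1.66, adjusted p = 0.0749).

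CD79A, which pairs with CD79B in the B cell receptor, had 57.5, 26.1 and 61.04 CPM with PMA, against 0, 0 and 1.01 CPM with SAHA, with DMSO at 4.84, 4.59 and 4.52 CPM. It had reads in 29 of 36 PMA cells and 1 of 36 SAHA cells (27 and 0 after thinning), a log2 fold change of 7.74 ± 1.24 (adjusted p = 0.0174, and 0.0565 without P2769 or 0.0611 without P2770). The B cell markers MS4A1, CD79B, PAX5 and BLNK were at 0 in every PMA and SAHA sum.

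Of the protein kinase C isoforms and diacylglycerol sensors, the proteins closest to the action of PMA, 2 of 18 were called and both were higher. These are 11.1% of the list, against 3.85% of all genes tested called higher, and the list median was 0.67. DGKA, the kinase that removes diacylglycerol, had 511.02, 510 and 496 CPM with PMA, against 50.9, 67.0 and 95.2 CPM with SAHA, with DMSO at 31.5, 143.5 and 59.1 CPM (log2 2.88 ± 0.22, adjusted p = 0.00153). PRKCH, protein kinase C eta, had 142.9, 228 and 209 CPM with PMA, against 29.6, 35.8 and 37.7 CPM with SAHA (log2 2.47 ± 0.22, adjusted p = 0.00236). Both calls held with each plate left out.

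STAT5A and STAT5B, the factors that carry IL-2 and IL-7 signals to the nucleus, were the 2 genes called of 20 tested in the STAT and JAK family, whose median was -0.11. These 2 calls are 10% of the list, against 3.85% of all genes tested called higher. Both genes passed the filter on low counts through their PMA sums, so the direction of the calls is no separate support. STAT5A had 162.4, 313 and 338 CPM with PMA, against 0, 0 and 1.18 CPM with SAHA, with DMSO at 0, 20.1 and 21.6 CPM. Reads were in 34 of 36 PMA cells and 1 of 36 SAHA cells (the same after thinning), and the log2 fold change was 9.56 ± 0.72 (adjusted p = 0.00138). STAT5B had 25.2, 30.8 and 42.8 CPM with PMA and no read in any SAHA cell. Against a floor of 3 counts over the group it was at least 215-fold higher with PMA (adjusted p = 0.0244, and 0.0658 without P2770 or 0.0853 without P2771). The pair lies side by side on chromosome 17 (GRCh38; STAT5B at 42199168 to 42276707 and STAT5A at 42287547 to 42311943). STAT3, their neighbour there (42313324 to 42388568), averaged 313 ± 76.6 CPM with PMA and 200 ± 79.6 CPM with SAHA and was not called (log2 0.70 ± 0.16, adjusted p = 0.0561).

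Some of the largest changes upward were of genes with no read in 36 SAHA cells, 18 genes among the 382. Were the cells independent, a share of SAHA cells with a read of up to 8.33% would be allowed at this depth. The labels do not show that they are, so this share is no firm limit. These 18 genes passed the filter on low counts through the PMA sums alone, and the share of such genes over all genes tested was not counted. DUSP6, CD79A, IL16 and STAT5A, each with reads in 1 SAHA cell, also passed it through their PMA sums. Folds given as at least, throughout, set the reads against 3 counts over the group. They cover counting error only and not the spread between cells, so they are no lower limits over further cells. HDC, the enzyme that makes histamine, had 298, 277 and 326 CPM with PMA and none with SAHA or DMSO, at least 1972-fold higher than the floor (adjusted p = 0.00095), with reads in 20 of 36 PMA cells. ANTXR2, an anthrax toxin receptor that binds matrix proteins, had 261, 98.9 and 152.6 CPM with PMA and none with SAHA or DMSO, at least 1122-fold higher (adjusted p = 0.00203), with reads in 29 of 36 PMA cells. PVRIG, an inhibitory receptor of the nectin family pathway, had 70.1, 78.4 and 100.7 CPM with PMA, 0 CPM on the 3 SAHA plates and 64.5, 64.8 and 90.7 CPM with DMSO. Unlike HDC and ANTXR2 it was present without either agent, and it had reads in 36 of 36 PMA cells and 0 of 36 SAHA cells (33 and 0 after thinning). PVRIG was at least 544-fold higher with PMA (adjusted p = 0.00545), and its exons overlap those of STAG3.

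The guanylate-binding proteins GBP1 and GBP2, GTPases of cell-intrinsic defence, were at least 467-fold and 484-fold higher (adjusted p = 0.00719 and 0.00671), with reads in 16 and 14 of 36 PMA cells. GBP1 also had reads in 5 of 18 DMSO cells (14.5, 0 and 59.1 CPM), and GBP2 in 0. CD300A, an inhibitory receptor, was at least 325-fold higher (adjusted p = 0.013). Further genes with no SAHA read, named by the same rule, were UBXN10, RGS6, ERICH5, CTSH, TNFSF8 and APOBEC3G, each at least 209-fold higher and with reads in 13 to 23 of 36 PMA cells (11 to 20 after thinning). With DMSO, ERICH5 had reads in 6 of 18 cells (19.4, 4.30 and 9.37 CPM), UBXN10 and CD300A in 1 each, and RGS6, CTSH, TNFSF8 and APOBEC3G in 0. Each of the 6 missed the threshold without at least 1 plate. The adjusted p was 0.0584 without P2769 and 0.0703 without P2770 for UBXN10, 0.126 and 0.0552 for TNFSF8, and 0.0705 without P2769 for ERICH5. It was 0.0602 without P2770 and 0.0753 without P2771 for RGS6, 0.0707 and 0.0825 for CTSH, and 0.0611 and 0.125 for APOBEC3G. RCBTB2, a protein with RCC1 repeats, had reads with both agents and the lowest adjusted p of the genes named (0.000133), with 1582, 2072 and 2395 CPM with PMA, against 68.9, 89.2 and 92.5 CPM with SAHA, with DMSO at 195.3, 104.7 and 243 CPM.

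Genes of G2 and mitosis were lower with PMA as a group. All 51 members looked for were tested, 36 were called lower and 0 higher, and the median was -2.13. The log2 fold change was negative for all 51. CDC20, the activator of the anaphase-promoting complex, had 180, 175.3 and 89.2 CPM with PMA, against 1072, 1293 and 1394 CPM with SAHA, with DMSO at 398, 665 and 727.6 CPM. The DMSO plates lay between the agents, and the log2 fold change was -3.13 ± 0.29 (adjusted p = 0.00251). TOP2A, the topoisomerase that untangles sister chromatids, had 128.6, 178.8 and 295 CPM with PMA, against 986, 1661 and 1601 CPM with SAHA, with DMSO at 309, 198.3 and 494 CPM (log2 -2.86 ± 0.18, adjusted p = 0.000824). Its reads were in 13 of 36 PMA cells and 36 of 36 SAHA cells (12 and 36 after thinning). KIF4A, a kinesin of the central spindle, had 10.5, 29.3 and 35.3 CPM with PMA, against 84.8, 242 and 224 CPM with SAHA, with DMSO at 8.88, 86.1 and 107.2 CPM (log2 -2.90 ± 0.24, adjusted p = 0.00182). ANLN, the anillin scaffold of the cleavage furrow, had 4.93, 25.4 and 66.2 CPM with PMA, against 75.5, 299 and 313 CPM with SAHA, with DMSO at 15.3, 39.9 and 62.98 CPM (log2 -3.20 ± 0.38, adjusted p = 0.00568). For ANLN the PMA and DMSO plates overlapped and the SAHA plates stood above both, and without the plate term its adjusted p was 0.0827.

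The promoters of these 4 genes are shown because genes of this phase are known to share the CHR element, bound by the DREAM and MuvB complexes, and CCAAT boxes, bound by NF-Y. They are from RefSeq (GRCh38.p14, 250 bases before to 50 after the start), each in the direction of its gene, with capitals on matches to TTTGAA (CHR) or CCAAT on either strand, so that TTCAAA and ATTGG are the reverse forms.
CDC20 promoter (chr1:43358731-43359030, plus strand): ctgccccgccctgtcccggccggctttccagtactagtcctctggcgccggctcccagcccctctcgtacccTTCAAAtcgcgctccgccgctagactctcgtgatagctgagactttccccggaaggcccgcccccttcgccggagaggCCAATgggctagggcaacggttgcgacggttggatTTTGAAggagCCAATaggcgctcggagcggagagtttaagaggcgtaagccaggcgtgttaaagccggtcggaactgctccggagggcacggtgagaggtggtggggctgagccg
TOP2A promoter (chr17:40417847-40418146, minus strand): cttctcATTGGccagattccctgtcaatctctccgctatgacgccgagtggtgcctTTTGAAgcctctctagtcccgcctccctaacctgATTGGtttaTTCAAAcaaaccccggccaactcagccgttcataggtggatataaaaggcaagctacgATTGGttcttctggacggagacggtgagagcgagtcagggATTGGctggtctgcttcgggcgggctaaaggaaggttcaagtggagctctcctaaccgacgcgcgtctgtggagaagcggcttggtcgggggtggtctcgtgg
KIF4A promoter (chrX:70289854-70290153, plus strand): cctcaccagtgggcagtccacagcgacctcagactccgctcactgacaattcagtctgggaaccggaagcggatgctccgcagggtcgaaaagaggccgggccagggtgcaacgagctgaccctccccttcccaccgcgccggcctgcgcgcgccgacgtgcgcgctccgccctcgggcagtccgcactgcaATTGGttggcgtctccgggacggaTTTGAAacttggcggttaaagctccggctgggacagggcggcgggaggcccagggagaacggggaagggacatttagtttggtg
ANLN promoter (chr7:36389612-36389911, plus strand): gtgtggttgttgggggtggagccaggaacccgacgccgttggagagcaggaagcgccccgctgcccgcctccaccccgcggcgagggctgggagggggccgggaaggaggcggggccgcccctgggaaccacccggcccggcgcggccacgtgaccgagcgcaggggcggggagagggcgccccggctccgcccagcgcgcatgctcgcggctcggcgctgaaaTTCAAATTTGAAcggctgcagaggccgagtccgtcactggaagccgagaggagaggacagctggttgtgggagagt
TTTGAA was in 33 of the 44 promoters found for the 51 genes, against 9.59% of the promoters of tested genes and 15.4% of all 27305 in the table. CCAAT was in 35 of 44 (79.5%), against 38.6% and 35.7%. Among the 318 promoters found for all genes called lower, 70 held TTTGAA and 52.2% held CCAAT. KIF4A has its CHR match 34 bases before the start and a CCAAT match 58 bases before it, and CDC20 has a CHR match 65 bases and CCAAT matches 100 and 55 bases before it. ANLN has a pair of CHR matches, 26 and 20 bases before the start, that form a palindrome, and no CCAAT match in this window.

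The regulators of mitotic entry moved with the effectors. CCNB1 (cyclin B1) averaged 434 ± 266 CPM with PMA, against 2029 ± 248 CPM with SAHA and 1155 ± 695 CPM with DMSO (log2 -2.39 ± 0.37, adjusted p = 0.0146, and 0.0761 without P2770 or 0.0607 without P2771). CDK1 averaged 321 ± 161.5 CPM with PMA, against 1140 ± 126.6 CPM with SAHA and 220 ± 166.97 CPM with DMSO (log2 -1.97 ± 0.37, adjusted p = 0.0279, and 0.11 without P2769). For CDK1 the PMA and DMSO ranges overlapped, whereas for CCNB1 the DMSO range reached from the PMA to the SAHA values. AURKB, the kinase that corrects faulty attachments of chromosomes, averaged 52.6 ± 14.7 CPM with PMA and 327 ± 10.6 CPM with SAHA (log2 -2.67 ± 0.23, adjusted p = 0.00206). NUSAP1, a spindle protein, averaged 137.3 ± 39.8 CPM with PMA and 906 ± 95.6 CPM with SAHA (log2 -2.76 ± 0.22, adjusted p = 0.00177). AURKA and PLK1, kinases that build the spindle poles, had log2 fold changes of -2.69 ± 0.61 and -2.30 ± 0.61 and were not called (adjusted p = 0.0517 and 0.0767), and P2769 held the highest PMA values of both. MKI67, the antigen Ki-67, averaged 66.7 CPM with PMA and 94.6 CPM with SAHA (log2 -0.58 ± 0.27, adjusted p = 0.278). In the list 34, 27 and 26 genes were called when P2769, P2770 or P2771 was left out.

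**Figure D4:**
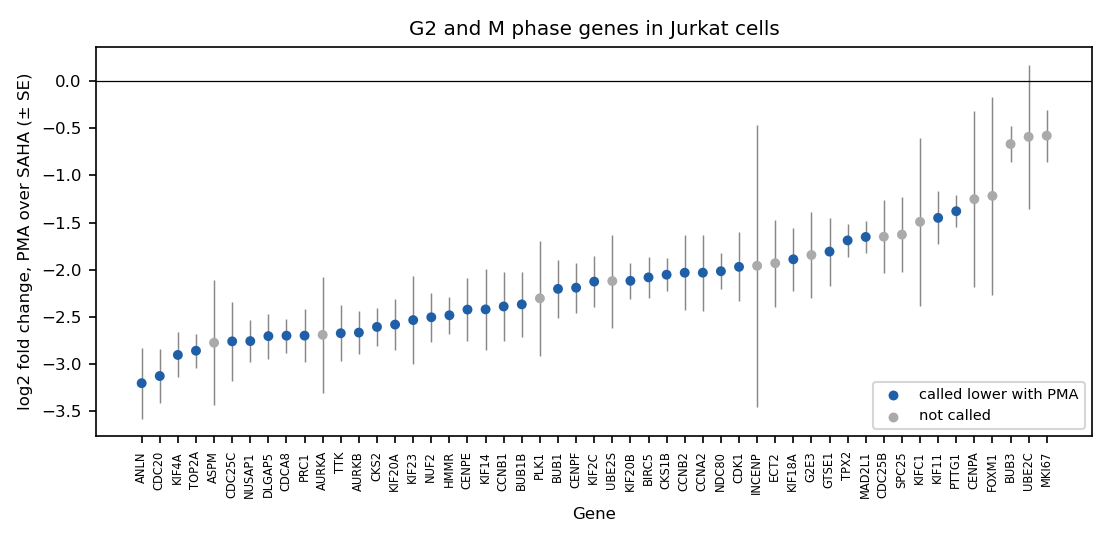
Log2 fold change of PMA over SAHA for the 51 G2 and M phase genes, with bars of 1 SE and the horizontal line at 0. All 51 lie under 0, from ANLN at -3.20, and the 36 called genes are in blue.

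Single cells differed in their summed level of the mitotic genes. The summed level of the 51 genes in a cell ran from 806 to 29109 CPM with PMA (median 2018), from 13327 to 29520 CPM with SAHA (median 24234) and from 3933 to 23940 CPM with DMSO (median 12522). Of the PMA cells 32 of 36 lay under the lowest SAHA cell, and the other 4 (1, 2 and 1 on the 3 plates) lay within the SAHA range. Of the DMSO cells 11 of 18 lay under the lowest SAHA cell. The highest PMA cell was thus close to the highest SAHA cell, and the PMA cells covered a wider range than the SAHA cells. The cut at the lowest SAHA cell is not a gap, as PMA cells at 12605, 11461 and 11147 CPM lay just under it. DMSO cells were spread across the same cut. The summed T cell receptor list behaved otherwise, running from 10185 to 30776 CPM with PMA (median 17086), from 1052 to 3751 CPM with SAHA (median 1716) and from 4569 to 10788 CPM with DMSO (median 7134). Here 36 of 36 PMA cells lay above the highest SAHA cell. The labels do not say which cells came from separate cultures, so these ranges describe the cells and are no test.

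**Figure D5:**
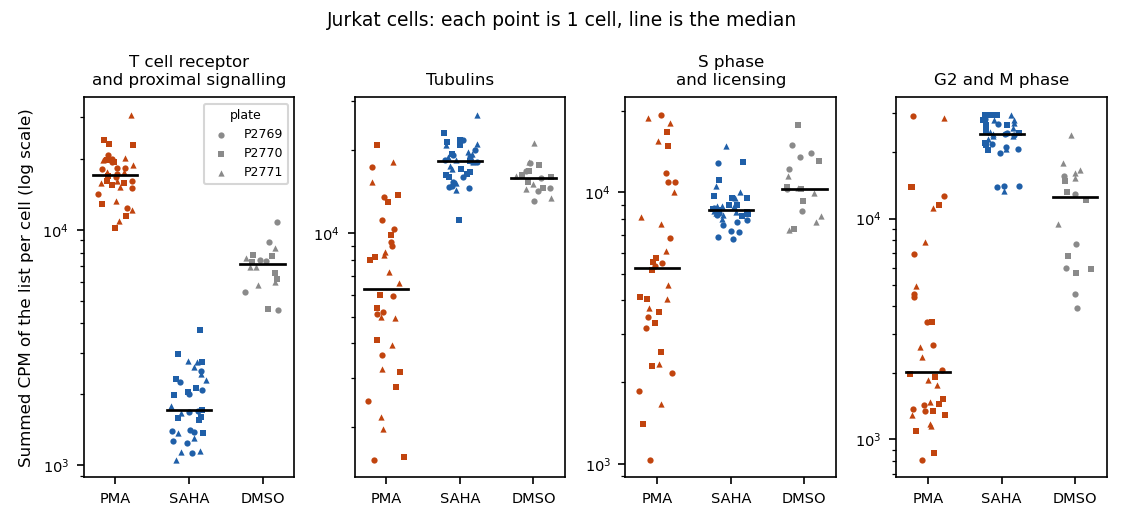
Summed CPM per cell, on log axes, of 4 gene lists in Jurkat cells with PMA, SAHA and DMSO. Each point is 1 cell, its shape gives the plate and the line is the median over cells. PMA cells lie above all SAHA cells for the T cell receptor list and mostly below them for the G2 and M phase list, where 4 PMA cells lie within the SAHA range.

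Tubulins were lower with PMA, with 7 of 14 called lower, 0 higher and a median of -1.52. TUBB4B, a beta tubulin, had 367, 316 and 242 CPM with PMA, against 2625, 2471 and 2801 CPM with SAHA, with DMSO at 635, 672 and 842 CPM (log2 -3.11 ± 0.17, adjusted p = 0.000661). TUBB2A, a beta tubulin abundant in neurons, had 31.7, 20.8 and 40.7 CPM with PMA, against 256, 267 and 254 CPM with SAHA, with DMSO at 37.1, 61.1 and 31.003 CPM (log2 -3.10 ± 0.27, adjusted p = 0.00215). For TUBB2A the PMA and DMSO ranges overlapped and SAHA alone was high. TUBA1B, an alpha tubulin, averaged 3480 ± 849 CPM with PMA, against 7316 ± 553 CPM with SAHA and 9213 ± 520 CPM with DMSO (log2 -1.09 ± 0.11, adjusted p = 0.00317), so that there SAHA was below DMSO. TUBB was not called, with 2511 ± 213 CPM with PMA and 3285 ± 302 CPM with SAHA (log2 -0.38 ± 0.09, adjusted p = 0.0649). TUBA4A had a positive fold change, at 167.4 ± 24.1 CPM with PMA, 88.7 ± 32.6 CPM with SAHA and 13.3 ± 11.5 CPM with DMSO, and was not called (log2 0.99 ± 0.24, adjusted p = 0.0641). Tubulin genes share long stretches of sequence and reads may have been assigned among them by estimation. Summed over the list, a cell held a median of 6290 CPM with PMA, 18273 CPM with SAHA and 15892 CPM with DMSO. Without P2769, P2770 or P2771 the list had 6, 5 and 5 calls.

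Replication genes moved less than mitotic ones. Of 48 S phase and licensing genes 7 were called lower (14.6%, against 3.76% of all genes tested) and 1 higher (2.08%, against 3.85%). The median was -0.57. GMNN, the licensing inhibitor geminin, had 151.8, 88.7 and 152.8 CPM with PMA, against 601, 447 and 452 CPM with SAHA, with DMSO at 232, 248 and 290 CPM (log2 -1.96 ± 0.19, adjusted p = 0.00317), and held its call with each plate left out. TK1 (thymidine kinase) and EXO1 (a repair exonuclease) had log2 fold changes of -1.91 ± 0.27 and -1.85 ± 0.24 (adjusted p = 0.0108 and 0.00789, both missing the threshold without P2770 or P2771, at 0.0533 to 0.109). UNG, which removes uracil from DNA, was the gene called higher, with 130, 234 and 194.2 CPM with PMA, against 42.96, 36.3 and 35.4 CPM with SAHA, with DMSO at 457, 271 and 100 CPM (log2 2.25 ± 0.29, adjusted p = 0.00789, and 0.0552 without P2770 or 0.0541 without P2771). MCM5, a subunit of the replicative helicase, averaged 243 CPM with PMA and 97.9 CPM with SAHA and was not called (log2 1.26 ± 0.40, adjusted p = 0.128). The calls downward in this list numbered 4 without P2769 and 1 without P2770 or P2771.

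Among CDK inhibitors and G1 cyclins, 2 of 17 were called higher (11.8%, against 3.85% of all genes tested) and 1 lower (5.88%, against 3.76%). CDK6, the G1 kinase of T cells, had 499, 569 and 681 CPM with PMA, against 266, 284 and 274 CPM with SAHA, with DMSO at 414, 325 and 273 CPM (log2 1.08 ± 0.14, adjusted p = 0.00917, and 0.0513 without P2770 or 0.064 without P2771). CCNE2, a cyclin E, was called higher (log2 2.82 ± 0.45, adjusted p = 0.0166, and 0.0864 without P2769 or 0.095 without P2771), with reads in 11 PMA cells and 8 SAHA cells (10 and 7 after thinning). CDKN3, a phosphatase of CDK1 and CDK2, had 229, 110 and 92.5 CPM with PMA, against 1154, 905 and 992 CPM with SAHA, with DMSO at 289, 339 and 420 CPM (log2 -2.93 ± 0.23, adjusted p = 0.00158). CDKN1A, the inhibitor p21 and a much studied target of deacetylase inhibitors, had 0, 0 and 7.03 CPM with PMA, against 4.65, 20.1 and 17.4 CPM with SAHA and 0 CPM with DMSO, and was not called (log2 -5.51 ± 2.40, adjusted p = 0.238). In the MYC network only MXD3, a repressor that pairs with MAX, was called of 8 tested (log2 -3.03 ± 0.65, adjusted p = 0.0428, and 0.109, 0.186 and 0.168 without P2769, P2770 and P2771). This 1 call is 12.5% of the list, against 3.76% of all genes tested called lower. MYC itself did not separate the agents, at 34.5 ± 17.7 CPM with PMA and 33.3 ± 24.1 CPM with SAHA (log2 0.28 ± 0.71, adjusted p = 0.857), against 527 ± 334 CPM with DMSO.

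Genes known to answer to deacetylase inhibitors had a median of -1.18, with 3 of 22 called lower with PMA and 0 higher. The 3 calls are 13.6% of the list, against 3.76% of all genes tested called lower. CRIP2, a LIM-domain protein, had no read in 36 PMA cells, against 20.2, 26.2 and 37.2 CPM with SAHA and no read with DMSO, at least 176.4-fold lower with PMA (adjusted p = 0.0321, and 0.0596, 0.082 and 0.113 without P2769, P2770 and P2771). The others were TUBB2A, described above, and TUBB3, the neuronal beta tubulin, with 13.6, 21.4 and 35.3 CPM with PMA, against 101.7, 72.6 and 89.3 CPM with SAHA, with DMSO at 10.5, 26.97 and 0 CPM (log2 -1.99 ± 0.42, adjusted p = 0.042, and 0.112, 0.144 and 0.113 without P2769, P2770 and P2771). ID2, an inhibitor of helix-loop-helix factors, averaged 7.32 ± 6.86 CPM with PMA, 78.5 ± 22.5 CPM with SAHA and 7.33 ± 8.82 CPM with DMSO (log2 -3.94 ± 1.32, adjusted p = 0.14). It was not called, although the PMA and SAHA plates did not overlap. The neuronal gene list overlaps this one, with 3 of 12 tested called lower (25%) and a median of -2.71. Beside the 2 tubulins it held GNG3, a G protein gamma subunit of neurons, with 0.60, 0 and 1.60 CPM with PMA, against 67.8, 29.7 and 31.8 CPM with SAHA and 0 CPM with DMSO (log2 -6.28 ± 1.20, adjusted p = 0.0305, and 0.146 without P2769 or 0.0743 without P2770). Exons of GNG3 overlap those of BSCL2.

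Of 14 histone deacetylases tested, counting sirtuins, 1 was called, SIRT2, a NAD-dependent tubulin deacetylase that SAHA does not block. It had 43.3, 40.9 and 34.996 CPM with PMA, against 128.7, 148.1 and 120 CPM with SAHA, with DMSO at 30.3, 35.3 and 68.1 CPM (log2 -1.73 ± 0.24, adjusted p = 0.011, and 0.082 without P2770 or 0.0765 without P2771). The 1 call is 7.14% of the list, against 3.76% of all genes tested called lower, and the list median was -0.55. Of 15 linker and replacement histones 4 were called lower (26.7%, against 3.76% of all genes tested) and 1 higher (6.67%, against 3.85%). The median was -0.56. H3-3B, which encodes the replacement histone H3.3, had 2374, 2018 and 2193 CPM with PMA, against 6367, 5723 and 5172 CPM with SAHA, with DMSO at 1623, 1140 and 1728 CPM (log2 -1.38 ± 0.09, adjusted p = 0.000853). H2AZ2, an H2A.Z variant, had 158.9, 120 and 107.2 CPM with PMA, against 448, 316 and 340 CPM with SAHA (log2 -1.51 ± 0.16, adjusted p = 0.00386). MACROH2A1, a histone variant of silent chromatin, went the other way, with 809, 596 and 550 CPM with PMA, against 148.6, 104.96 and 128.6 CPM with SAHA, with DMSO at 209, 148.6 and 183.4 CPM (log2 2.35 ± 0.15, adjusted p = 0.000853). These 3 calls held with each plate left out. The other calls in the list, H4C3 and H2AZ1 (adjusted p = 0.0491 and 0.0308), missed the threshold without P2769, P2770 or P2771 (0.216, 0.0666 and 0.231 for H4C3 and 0.0944, 0.141 and 0.0747 for H2AZ1), and without the plate term (0.512 for H4C3 and 0.313 for H2AZ1).

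Among the 373 genes called lower, 7 had no read in 36 PMA cells. These passed the filter on low counts through the SAHA sums alone, and the share of such genes over all genes tested was not counted. CYP4F2, a cytochrome P450 that hydroxylates fatty acids and vitamin K, had none with PMA, against 25.3, 94.3 and 77.01 CPM with SAHA and a single read in 1 of 18 DMSO cells, at least 419-fold lower with PMA (adjusted p = 0.00839), with reads in 14 of 36 SAHA cells. CYP4F12, its neighbour on chromosome 19 (GRCh38, 15672757 to 15697174, against 15878023 to 15898120 for CYP4F2), was at least 234-fold lower (adjusted p = 0.0208, and 0.0572 without P2770 or 0.0708 without P2771). The pair is similar in sequence, so some reads may be shared. CYRIA, which restrains RAC1 and actin branching, had no read with PMA, against 39.9, 59.2 and 61 CPM with SAHA and no read with DMSO, at least 340-fold lower (adjusted p = 0.0115), with reads in 22 of 36 SAHA cells (21 after thinning). ZMYND10, SLC41A2 and CGREF1 were at least 164.7-fold, 145.6-fold and 135.2-fold lower with PMA, and each missed the threshold with any 1 plate left out (adjusted p of 0.0552 to 0.192 over the 3 genes). The next in size were IQCD (log2 -5.37 ± 0.64, adjusted p = 0.00582, and 0.0552 without P2770) and PABIR2 (log2 -3.83 ± 0.55, adjusted p = 0.0119, and 0.0784 without P2770). FAM72C, one of several near-identical copies on chromosome 1, had a log2 fold change of -4.29 ± 0.75 that is uncertain for this reason (adjusted p = 0.023, and 0.0538, 0.123 and 0.126 without P2769, P2770 and P2771).

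Cytoskeletal and adhesion genes were called in both directions, 12 higher and 4 lower of 38 tested, with a median of 0.52. These are 31.6% and 10.5% of the list, against 3.85% and 3.76% of all genes tested. CORO1A, the coronin of lymphocyte actin, had 1543, 1235 and 1384 CPM with PMA, against 211, 277 and 300 CPM with SAHA, with DMSO at 545, 549 and 619 CPM (log2 2.41 ± 0.18, adjusted p = 0.0012). LGALS1, the galactose-binding protein galectin-1, had 153.9, 88.5 and 55.3 CPM with PMA, against 5.74, 7.05 and 4.21 CPM with SAHA and 0 CPM with DMSO (log2 4.04 ± 0.42, adjusted p = 0.00398). PFN1 (profilin) averaged 4148 ± 668 CPM with PMA, against 1308 ± 256 CPM with SAHA and 1684 ± 220 CPM with DMSO (log2 1.68 ± 0.10, adjusted p = 0.000802). TPM4 (a tropomyosin) also held its call with each plate left out (log2 2.19 ± 0.22, adjusted p = 0.00385), and ZYX (zyxin) did not (log2 2.38 ± 0.48, adjusted p = 0.0353, and 0.0916, 0.219 and 0.126 without P2769, P2770 and P2771). ACTG1 (gamma actin) was called lower, with 3427, 3973 and 3738 CPM with PMA, against 10810, 12712 and 15006 CPM with SAHA, with DMSO at 2019, 2129 and 3029 CPM (log2 -1.78 ± 0.10, adjusted p = 0.000661). ACTB (beta actin) was called higher, with 16699, 24009 and 22068 CPM with PMA and 8583, 13193 and 17210 CPM with SAHA (log2 0.73 ± 0.12, adjusted p = 0.0194, and 0.0843 without P2769, 0.107 without P2770 or 0.173 without the plate term). The cytoplasmic actins thus had fold changes of opposite sign. ANXA2, ANXA5 and S100A10, a calcium-binding membrane complex and its relative, were the other genes called lower (log2 -1.88, -1.79 and -1.62), and each missed the threshold without P2771 (adjusted p of 0.0628 to 0.109). Without P2769 the adjusted p was 0.0586 for ANXA2 and 0.0763 for ANXA5, and without P2770 it was 0.0918 for ANXA2 and 0.0513 for S100A10. Without the plate term it was 0.0621 for ANXA2. With a plate left out the list had 8 to 11 calls upward and 1 or 2 downward.

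In the sterol pathway 5 of 28 genes were called higher (17.9%, against 3.85% of all genes tested) and 1 lower (3.57%, against 3.76%). The median was 0.59. FDPS, which makes farnesyl pyrophosphate, had 1618, 944 and 1020 CPM with PMA, against 414, 361 and 372 CPM with SAHA, with DMSO at 1118, 692 and 1099 CPM (log2 1.61 ± 0.15, adjusted p = 0.00294). ACAT2, the first enzyme of the pathway, and FDFT1, squalene synthase, had log2 fold changes of 1.57 ± 0.14 and 1.66 ± 0.16 (adjusted p = 0.00218 and 0.00325). For these 3 enzymes every SAHA plate stood below every PMA and DMSO plate. MVD had a log2 fold change of 1.47 ± 0.31 (adjusted p = 0.0425, and 0.135, 0.150 and 0.149 without P2769, P2770 and P2771). INSIG1, the protein that holds the sterol sensor SCAP in the endoplasmic reticulum, was called lower, at 643 ± 31.6 CPM with PMA, 1296 ± 169.2 CPM with SAHA and 1237 ± 228 CPM with DMSO (adjusted p = 0.00498).

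Purine genes gave 4 calls higher of 26 (15.4%, against 3.85% of all genes tested) and 1 lower (3.85%, near the 3.76% of all genes tested). The median was 0.23. ADA, adenosine deaminase, had 968, 1109 and 880 CPM with PMA, against 446, 463 and 513.3 CPM with SAHA, with DMSO at 3468, 2938 and 3436 CPM (log2 1.06 ± 0.14, adjusted p = 0.00843, and 0.0523 without P2769 or 0.057 without P2770), so that both agents lay far below the vehicle. PNP, purine nucleoside phosphorylase, had 648, 667 and 593 CPM with PMA, against 226, 196.4 and 242 CPM with SAHA, with DMSO at 227, 297 and 280 CPM (log2 1.53 ± 0.15, adjusted p = 0.00317). ATIC and NT5C were also called higher (log2 1.35 ± 0.21 and 1.79 ± 0.40, adjusted p = 0.0155 and 0.0487), and missed the threshold without P2769 (0.083 and 0.116) or P2771 (0.0998 and 0.199), NT5C also without P2770 (0.218). SLC3A2, the heavy chain of amino acid transporters such as LAT1, was the 1 called gene of 25 in the ATF4 and serine list, with 593, 535 and 511.2 CPM with PMA, against 102.04, 90.3 and 100.8 CPM with SAHA, with DMSO at 378, 343 and 334 CPM (log2 2.49 ± 0.15, adjusted p = 0.000802). This 1 call is 4% of the list, near the 3.85% of all genes tested that were called higher. Of 23 glycolysis genes TPI1 and GAPDH were called lower (log2 -1.76 ± 0.15 and -0.75 ± 0.08, adjusted p = 0.00215 and 0.00398) and LDHB higher (log2 0.41 ± 0.09, adjusted p = 0.0416, and 0.11, 0.192 and 0.137 without P2769, P2770 and P2771 and 0.232 without the plate term). The calls downward are 8.70% of this list, against 3.76% of all genes tested. The call upward is 4.35%, near the 3.85% of all genes tested.

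Interferon-stimulated genes had a median of 0.73. Of 37 tested, 4 were called higher (10.8%, against 3.85% of all genes tested) and 1 lower (2.70%, against 3.76%). IFI16, a nuclear DNA sensor, had 484, 408 and 404 CPM with PMA, against 147.2, 130 and 164.5 CPM with SAHA, with DMSO at 673, 505.01 and 497 CPM (log2 1.56 ± 0.16, adjusted p = 0.00388). HLA-E, a ligand of NK receptors, had 259, 166.1 and 101.95 CPM with PMA, against 23.4, 44.98 and 21.6 CPM with SAHA, with DMSO at 18.6, 20.1 and 42.0 CPM (log2 2.53 ± 0.37, adjusted p = 0.0123). HLA-E thus stood above DMSO with PMA, and IFI16 stood below DMSO with both agents, further with SAHA. PSMB8 and IFITM2, a subunit of the immunoproteasome and a membrane protein that blocks viral entry, were called higher (log2 1.63 ± 0.28 and 2.91 ± 0.43, adjusted p = 0.0227 and 0.0128), and missed the threshold without P2769 (0.11 and 0.0687) or P2770 (0.0961 and 0.0732). IFIT1, which binds foreign RNA, was called lower (log2 -1.499 ± 0.33, adjusted p = 0.049, and 0.135, 0.208 and 0.192 without P2769, P2770 and P2771).

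Of 19 HIV restriction factors 4 were called higher (21.1%, against 3.85% of all genes tested) and 0 lower, with a median of 1.47. They were IFITM2, APOBEC3G (a cytidine deaminase, described above), ZC3HAV1 (the zinc finger antiviral protein; log2 1.79 ± 0.39, adjusted p = 0.0453) and SLFN5 (log2 1.60 ± 0.35, adjusted p = 0.047). ZC3HAV1 missed the threshold without P2769 (0.0878), P2770 (0.185) or P2771 (0.145), and SLFN5 without P2769 (0.175) or P2770 (0.203). The list had 1 call without P2769, 0 without P2770 and 2 without P2771. Of 28 P-TEFb and elongation factors, which HIV Tat recruits, 1 was called, SUPT4H1, lower (log2 -1.05 ± 0.21, adjusted p = 0.0343, and 0.0743, 0.167 and 0.187 without P2769, P2770 and P2771 and 0.189 without the plate term), with a list median of -0.19. This 1 call is 3.57% of the list, near the 3.76% of all genes tested that were called lower.

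Of the BCL2 family, which controls release of cytochrome c from mitochondria, BCL2L1 (the inhibitor BCL-XL) and BID (an activator) were called higher (log2 2.78 ± 0.53 and 1.46 ± 0.22, adjusted p = 0.0314 and 0.0145) and BNIP3 lower (log2 -1.65 ± 0.28, adjusted p = 0.0213) among 13 tested. None of these 3 passed with a plate left out (adjusted p of 0.0651 to 0.243). The calls are 15.4% of the list upward and 7.69% downward, against 3.85% and 3.76% of all genes tested. Of 18 heat shock chaperones HSPA8 and DNAJB1 were called lower (11.1%, against 3.76% of all genes tested). HSPA8, the constitutive HSP70, had 2694, 1588 and 1849 CPM with PMA, against 5728, 7542 and 9999 CPM with SAHA, with DMSO at 2040, 3900 and 3221 CPM (log2 -1.92 ± 0.26, adjusted p = 0.00976, and 0.0552 without P2770). DNAJB1, its co-chaperone, had 130, 87.4 and 88.8 CPM with PMA and 371, 332 and 282 CPM with SAHA (log2 -1.70 ± 0.17, adjusted p = 0.00385).

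All 13 mitochondrially encoded genes had a negative log2 fold change (median -0.51) and 6 were called lower, among them MT-ND2, a subunit of respiratory complex I (log2 -0.64 ± 0.11, adjusted p = 0.02, and 0.0929, 0.0749 and 0.1 without P2769, P2770 and P2771 and 0.321 without the plate term). The share of counts from these genes was lower with PMA on each plate, at 4.11%, 3.67% and 3.32% in the median cell with PMA, against 5.71%, 4.26% and 4.08% with SAHA. In this list 1, 1 and 2 genes were called without P2769, P2770 and P2771, and 0 without the plate term. Of 79 cytoplasmic ribosomal protein genes 6 were called lower (7.59%, against 3.76% of all genes) and 0 higher (median -0.25). The list had 2, 1 and 1 calls without P2769, P2770 and P2771 and 1 without the plate term. Of 45 ribosome biogenesis genes NPM1 and GNL3, proteins of the nucleolus, were called higher (log2 0.64 ± 0.11 and 1.21 ± 0.23, adjusted p = 0.0214 and 0.0301), a share of 4.44%, near the 3.85% of all genes. NPM1 had 1447, 976 and 969 CPM with PMA, against 893, 607 and 671 CPM with SAHA, with DMSO at 2562, 2279 and 1628 CPM, so that both agents lay below the vehicle. No gene of this list was called with a plate left out (for NPM1 the adjusted p was 0.0754 to 0.119, and 0.176 without the plate term).

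In J-Lat A2 cells on the same plates most of these differences between the agents had the same sign. Of the genes called higher in Jurkat cells 368 of 382 had the same sign in J-Lat A2, and of those called lower 364 of 373, against 70.8% of all genes tested in both. In J-Lat A2 1057 of 11380 genes were called (9.29%), 538 higher (4.73%) and 519 lower (4.56%). The genes called higher in both lines numbered 266, or 69.6% of the Jurkat and 49.4% of the J-Lat A2 list, and those called lower in both numbered 251, or 67.3% and 48.4%. CD69 had 1234, 923 and 950 CPM with PMA in J-Lat A2, against 23.6, 5.45 and 5.02 CPM with SAHA, and LAT had 492, 561 and 539 CPM with PMA, against 15.1, 12.1 and 4.94 CPM with SAHA. CDC20 averaged 216 ± 102.1 CPM with PMA and 681 ± 75.7 CPM with SAHA in J-Lat A2. The test of the difference between the lines called 11 of 11380 genes (0.0967%), 800 at an unadjusted p under 0.05, and none of TRAC, LAT, CD69, CDC20 or TOP2A was among the 11 (adjusted p of 0.137 to 0.874).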

How the data were processed

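Single cells were sorted by the study into 96-well plates and their cDNA, made with an oligo(dT) primer and template switching, was amplified by PCR and fragmented for sequencing, per the labels' protocols. The authors deposited 1 table of expected counts with a column for each well and no scaling for depth, and 12.8% of its values above 0 are not whole. The submitters' processing notes name Salmon 1.5.1, alevin and GRCh38.p13. The annotation and any read filter were not given in the sources used here. Molecular identifiers are not described, so floors from counts cover counting error only.

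Wells of 1 treatment and plate were added up and the sums rounded. Each plate holds both agents, so plate entered the fit as a block, from the plate names in the titles. Deviations of PMA and SAHA sums correlated at 0.139, 0.0737 and 0.0135 on the same plate (P2769, P2770, P2771) and at -0.119 to 0.0674 between plates. For P2771 the PMA sum was closer to the SAHA sum of P2770 (0.0674), so only the titles give the pairing. Sums were compared in edgeR 4.0.16 (R 4.3.3) with TMM scaling, filterByExpr and the two-sided quasi-likelihood F test, 2 residual and 4.30 prior degrees of freedom, Benjamini-Hochberg adjustment and a threshold of 0.05 with no minimum fold. Levels per plate are CPM scaled by TMM over the sums of both lines and all treatments on the 3 plates. Levels per cell are CPM of the total of that cell, without TMM. Neither is divided by gene length, so levels are not compared between genes. The difference between lines is the line by treatment term over 12 sums. Log2 fold changes against DMSO come from a fit of 9 sums. Genes at 0 in a group are set against 3 counts over the group. Scripts were tested on simulated counts.

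Members, lists, motifs and tests were chosen with earlier results of these data known. The genes named by rule are the 12 highest and 12 lowest fold changes among called genes with a symbol, at least 20 CPM and reads in 6 cells of the higher group and 1 direction on all plates, up to 4 called members of each of 36 lists, up to 5 genes each way for the difference between lines, and HIVmini. Other genes were picked from the lists with their values seen. Coordinates and overlapping exons are from GENCODE release 29 (GRCh38). Alternatives were DESeq2 1.42.0, limma 3.58.1 on equally weighted cells, other scaling, filters and wells, no plate block, DMSO sums added and each plate left out. Values of some list members are not reported here.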

Additional observations from a re-analysis of the deposited data

Results flagged for a closer look

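The fold change of PMA over SAHA differed between Jurkat and J-Lat A2 cells in 11 genes by the line by treatment term (edgeR, adjusted p under 0.05 over 11380 genes). The values below are the log2 fold change in Jurkat minus that in J-Lat A2.

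The difference was 1.52 for IDI1, a sterol pathway enzyme, which averaged 878 CPM with PMA and 915 CPM with SAHA in Jurkat cells and 680 CPM with PMA and 2033 CPM with SAHA in J-Lat A2 (adjusted p = 0.0145). INSIG1, which restrains the same pathway, differed by 1.01 (adjusted p = 0.0364). The actins differed by -1.13 for ACTB and -1.38 for ACTG1 (adjusted p = 0.0397 and 0.00721): ACTG1 had a log2 fold change of -1.79 in Jurkat cells and -0.41 in J-Lat A2.

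The difference was -1.62 for WARS1, the tryptophan tRNA ligase, with a log2 fold change of -0.56 in Jurkat cells and 1.07 in J-Lat A2 (adjusted p = 0.0145). HMGN2, a nucleosome-binding protein, differed by -1.43, with 1857 CPM with PMA and 3965 CPM with SAHA in Jurkat cells and 2541 CPM with PMA and 2031 CPM with SAHA in J-Lat A2 (adjusted p = 0.0364). CTSG, a granule protease, differed by -2.68 (adjusted p = 0.0397). RBM48, AHI1 and RCBTB2 differed by 2.31, 1.94 and 1.64 (adjusted p = 0.0364, 0.0364 and 0.0476). GBP1 differed by 8.80 (adjusted p = 0.0364), but no SAHA read was found in Jurkat cells and reads were in 3 J-Lat A2 cells with SAHA, so this size is not a bound.

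Without the plate block 0 of the 11 calls were made, and without a plate 0 to 2 genes were called.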

How the results depend on the processing

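All 755 genes called had the same sign under every alternative in which they were tested. The count of 755 was 687 with no replicate block, 763 with RLE scaling, 689 with DMSO sums added, 867 with no filter, 898 with a stricter filter, 764 with stricter wells, 1976 with DESeq2 and 1442 with equal weight per cell, and leaving out a plate gave 292 to 386. The 11 genes that differed between the lines became 0 without the replicate block (654 had an unadjusted p below 0.05, and the smallest adjusted value was 0.0643), 338 with DESeq2, 11 with RLE scaling and 15 with no filter, and leaving out a plate gave 0 to 2. The cause of these shifts was not tested, except that a plate left out leaves fewer samples.

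Of the called genes named by the rule, all stayed called with DESeq2, RLE scaling, equal weight and stricter wells, all but 2 with no filter, 99 without the block, 94 with DMSO added, and 73, 60 and 71 without P2769, P2770 and P2771. Under the stricter filter all of the 110 still tested stayed called. The genes whose log2 fold change reversed in sign were not called: leaving out a plate gave -1.68 to 0.85 for ITGA2B, -0.13 to 0.042 for IDI1, -2.88 to 0.98 for CD68 and -2.47 to 2.95 for PRF1. IDI1 was at 0.0030 with equal weight, and PRF1 at 0.51 without the block, 0.80 with equal weight and 0.055 with DMSO added.

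With 3 plates and 2 residual degrees of freedom, genes at a few CPM could not be resolved, so a gene not called is not shown to be equal between the agents.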
